A study of Mus musculus with 6 samples.

Results

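The genes described here are the long noncoding RNA genes that were expressed in the bone marrow of mice transplanted with blood progenitors that carry a leukaemia-associated mutant of the kinase JAK3. A gene was a member if the deposited table gave it the biotype lincRNA, lncRNA, antisense or processed_transcript and if its FPKM (fragments per kilobase of gene length and 1e+06 reads) was 5 or more in 3 or more libraries of the 6. The members were thus chosen by level, whatever the group. Of the 54532 genes in the table, 9165 carried one of these biotypes and 235 were members. They comprised 110 lincRNA genes, 86 antisense genes and 39 processed transcripts. The libraries were 3 labelled WT and 3 labelled KO, all from bone marrow of C57BL/6 mice at day 100 after transplantation. According to the study's methods, both groups of recipients received lineage-depleted haematopoietic cells carrying a retrovirus that expresses JAK3 M511I, an activating mutant of the kinase, together with green fluorescent protein. The WT donor cells were Phf6 fl/y, in which loxP sites flank exons of the gene for the chromatin-associated PHD finger protein Phf6 but no Cre is present. The KO donor cells were Vav1-Cre;Phf6 fl/y, in which the Vav1 promoter drives Cre in blood cells. Donors and recipients were male. The study describes the profiled cells as T-cell acute lymphoblastic leukaemia cells. The labels do not say whether cells carrying the virus were sorted from the marrow, so cells of the recipient could be present. The genotype labels number the gene Phf6, Phf7 and Phf8 along replicates 1 to 3 of each group. The labels do not say whether each library came from a separate mouse, so the p-values below measure the spread between these libraries, which may be in part technical.

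Long noncoding RNAs are transcripts, many of them spliced and polyadenylated like messenger RNAs, that carry no long open reading frame. Some act at the site of their own transcription, where they silence or activate genes nearby. Others scaffold bodies in the nucleus, and others again serve mainly as carriers of the small nucleolar RNAs (snoRNAs) or microRNAs that are cut out of their introns or exons. Many are restricted to 1 blood lineage, and their level in whole marrow follows both the number of cells of that lineage and the RNA per cell, which bulk libraries cannot tell apart.

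Across the libraries, 13015823 to 18235095 reads could be recovered from the FPKM values, of which 0.867% to 1.04% came from members in 5 libraries and 0.477% in WT 2. WT 2 stood apart: its correlation with the other WT libraries was 0.746 and 0.779 across tested genes, against 0.948 between WT 1 and WT 3, and 21.6% of its reads lay in ribosomal protein genes against 5.16% to 6.94% in the others. It was the lowest of the 6 libraries in 108 members and the highest in 54, and 40 members had no read there. Marker genes of several blood cell types moved with the groups. The study describes the leukaemia itself as one of T cells, and proposes that its cells were less mature without Phf6. For primary recipients at a later time it also reports larger shares of myeloid and B cells among virus-carrying marrow cells without Phf6. The neutrophil and monocyte markers below were lower in KO, and the reason for this difference from the study's cell shares was not tested. All 15 neutrophil markers were lower in KO, their summed FPKM ranging from 6961 to 95939 in WT and from 94.7 to 294 in KO. All 8 immature thymocyte markers, Rag1, Rag2 and Dntt among them, were higher, with sums of 21.2 to 35.1 in WT and 1139 to 1342 in KO. Of 7 tested markers of natural killer and effector T cells, 6 were lower and 1 was higher (sums of 1819 to 5273 in WT and 585 to 659 in KO). Monocyte markers were lower in 7 of 8 tested, and of 14 T cell markers 2 were higher and 2 lower, with sums of 1507 to 2758 in WT and 1580 to 1998 in KO. Erythroid and B cell markers did not pass the test over all 6 libraries, but their sums in WT 2, 61832 and 1074, exceeded those of every other library (18.8 to 498 and 1.10 to 17.2). The B cell sums were 11.3 and 17.2 in WT 1 and WT 3 and 1.10 to 1.39 in KO. Of 3 tested B cell markers, 3 were lower without WT 2 and 2 in TPM. Of 7 tested erythroid markers, 2 were higher and 2 lower without WT 2. The part of these cells in the results below was not tested. Phf6 itself was at an FPKM of 7.47, 3.67 and 8.02 in WT and 6.73, 5.50 and 5.11 in KO. The groups overlapped (log2 fold change -0.07 ± 0.33 SE, adjusted p = 0.893), and since the gene-level value includes exons that the deletion leaves in place it does not check the labels, on which the group names rest.

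KO and WT were compared to ask which of these RNAs differ with Phf6 status. In the comparison over all 13393 tested genes, 68 members (28.9%) were higher in KO and 24 (10.2%) were lower at an adjusted p under 0.05, by limma on log2(FPKM + 1). Among all tested genes, 13.1% were higher and 13.3% lower. Among the 7343 protein-coding genes at the same FPKM level the shares were 11.6% and 12.4%. The median log2 fold change of KO over WT was 0.63 over the members and 0.09 over all tested genes, and without WT 2 it was 0.21 and 0.04. Changes of more than 2 on the log2 scale were found upward in 50 members (21.3%) and downward in 19 (8.09%), and in 4.18% and 7.41% of the protein-coding genes. Rescaling to TPM raised the median of all tested genes to 0.86 and that of the members to 1.44, and then 79 members were higher (17% of all genes) and 17 lower (8.07% of all genes). Without WT 2, 98 members were higher and 63 lower, against 26.8% and 25.3% of all genes. The libraries of the 2 groups did not overlap in 89 members with KO higher (37.9%) and in 42 with KO lower (17.9%), beside 26.2% and 22.9% of all tested genes.

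These counts depend on how members entered. A gene that reached the level in 1 group alone had to differ between the groups, so its call is a description and not a test of the members. Of 62 members that reached the level in KO libraries alone, 59 were higher, and of 22 that reached it in WT libraries alone, 19 were lower. Another 98 members reached it in some libraries of both groups, and 7 of these were higher and 0 lower by limma. Without WT 2 these counts were 25 and 22. The remaining 53 members reached it in all 6 libraries, a requirement that favours small differences, and 2 of them were higher and 5 lower (12 and 19 without WT 2). The 7 called over all libraries were AI504432 and 1300002E11Rik, which were higher, and AW112010, Snhg12, Gm26982, Gm28875 and 1810026B05Rik, which were lower. Of these, 1300002E11Rik had an FPKM of 5.66, 5.15 and 6.60 in WT and 17.6, 14.8 and 21.0 in KO, with no overlap. AI504432 stood at 14.6, 5.61 and 15.2 in WT and 60.5, 44.4 and 45.9 in KO, again apart. In TPM, Gm26982, Gm28875 and 1810026B05Rik lost their call, at -0.55, -0.40 and -0.10, and the other 4 kept theirs. Leaving out KO 1 ended the call of AI504432 (adjusted p = 0.0543) and leaving out KO 2 that of Gm26982 (adjusted p = 0.0526), and any of KO 1, KO 2, KO 3 and WT 1 ended those of Gm28875 and 1810026B05Rik (adjusted p up to 0.117 and 0.116).

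**Figure D1:**
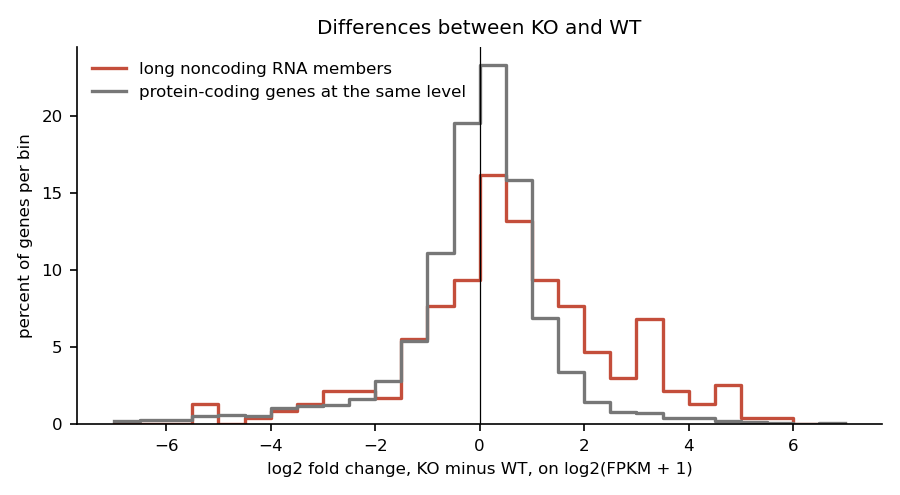
Share of genes (vertical axis, percent per bin of 0.5) by log2 fold change of KO over WT on the log2(FPKM + 1) scale (horizontal axis), for the 235 members (red) and the 7343 protein-coding genes at the same FPKM level (grey). The members' curve lies above the grey one in each bin from 1 to 6, and 21.3% of members against 4.18% of the protein-coding genes exceeded 2.

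By biotype, 44 of 110 lincRNA genes were higher and 12 lower, 18 of 86 antisense genes were higher and 8 lower, and 6 of 39 processed transcripts were higher and 4 lower. Without WT 2 the counts were 57 higher and 27 lower for lincRNA genes, 28 and 22 for antisense genes and 13 and 14 for processed transcripts. Over all tested genes 13.1% were higher and 13.3% lower, and 26.8% and 25.3% without WT 2. The counts include the members that reached the level in 1 group alone, which were 59 of the 68 called higher and 19 of the 24 called lower. The processed transcripts had the highest typical level, with a median over genes of the mean FPKM of 16.1, against 7.59 for lincRNA and 6.88 for antisense genes. Levels between genes are compared here per kilobase of gene length. Of the 235 members, 144 had a mean FPKM under 10 and 15 had one of at least 50. A total of 167 members overlapped another annotated gene and 102 overlapped a protein-coding gene on the opposite strand. The strand setting of the counting is not given in the sources used here, so reads of an antisense member and of its overlapping partner may not have been separated. Some processed transcripts carry symbols of protein-coding genes (Ifi30, Cct6a, Tmem134 and Spata5l1), and they are members by the table's biotype alone.

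The largest rise was that of Gm28942, a lincRNA gene on chromosome 1 (chr1:82819835-82820377, GRCm38, plus strand) with no described role known here. Its FPKM was 2.13, 0.466 and 2.83 in WT and 152, 118 and 96.7 in KO. Every KO library exceeded every WT library by a wide margin, and the log2 fold change was 5.54 ± 0.41 (SE, adjusted p = 0.000414), with n = 3 per group as for all members. The nearest protein-coding gene, Agfg1, which encodes an Arf GTPase-activating protein with nucleoporin-like repeats, lies 19.1 kb away on the same strand and was also higher, by 2.03 ± 0.35 (SE, adjusted p = 0.00772). The next 2 rises came from 1 place on chromosome 5, where 1810059H22Rik on the minus strand and Gm15409 on the plus strand overlap between positions 148953748 and 148970122. FPKM values of 1810059H22Rik were 0, 2.49 and 0.0257 in WT and 58.5, 51.1 and 44.3 in KO, a difference of 5.09 ± 0.52 (SE, adjusted p = 0.00115), and WT 2 alone of the WT libraries was above 1. Gm15409 had no read in any WT library and an FPKM of 32.5, 23.5 and 25.2 in KO, or 718 reads in all. Against a floor of 3 reads in each WT library its level in KO was at least 65.6-fold higher.

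The exon junctions of Gm28942 and Gm15409 are shown because a read across them belongs to the spliced noncoding transcript and not to a neighbour. Gm15409 lies at chr5:148959278-148961712 on the plus strand. Each line gives 150 bases of the longest GENCODE M21 transcript (GRCm38), 5′ to 3′, with the last 2 bases of the first exon and the first 2 of the second in capitals.
Gm28942, bases 49 to 198 of 365: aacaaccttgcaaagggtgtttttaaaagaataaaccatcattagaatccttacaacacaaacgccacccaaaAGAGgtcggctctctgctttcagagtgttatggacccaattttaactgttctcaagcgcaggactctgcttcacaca
Gm15409, bases 192 to 341 of 520: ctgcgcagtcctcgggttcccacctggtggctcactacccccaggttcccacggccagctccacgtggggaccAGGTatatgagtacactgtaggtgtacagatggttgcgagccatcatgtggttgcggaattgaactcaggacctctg

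The other 7 of the 10 largest rises were lincRNA genes except for the antisense gene 5830418P13Rik, and in all of them the groups did not overlap. The FPKM of Gm47242, on chromosome 19, was 0.273, 0 and 1.36 in WT and 34.7, 47.6 and 34.9 in KO (log2 fold change 4.78 ± 0.37 SE, adjusted p = 0.000479). B230344G16Rik overlaps Itgb4, the gene of the laminin-binding integrin beta 4, on the opposite strand. It had 2 reads in all WT libraries and an FPKM of 30.2, 25.6 and 22.9 in KO (log2 fold change 4.73 ± 0.23 SE, adjusted p = 0.000233). Itgb4 itself rose from 0.0646, 0.0970 and 0.101 in WT to 15.5, 13.9 and 12.7 in KO (log2 fold change 3.78 ± 0.21 SE, adjusted p = 0.000259). Gm6961, on chromosome 15, had no read in WT and an FPKM of 19.8, 23.2 and 33.7 in KO, at least 63.7-fold above the floor. Its divergent neighbour 39.3 kb away, the phospholipid scramblase gene Ano6, was higher by 2.17 ± 0.48 (SE, adjusted p = 0.0182), a call that ended without any 1 KO library (adjusted p up to 0.0801).

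5830418P13Rik stood at 0.0234, 0.492 and 0.257 in WT and 29.6, 27.7 and 29.4 in KO (log2 fold change 4.59 ± 0.24 SE, adjusted p = 0.000244). It lies opposite Bfsp2, which encodes a cytoskeletal protein of the eye lens. Bfsp2 gave 0.191, 13.1 and 0.0380 in WT and 7.43, 7.18 and 6.40 in KO, so that WT 2 alone exceeded KO and the difference missed the threshold (log2 fold change 1.62 ± 0.98 SE, adjusted p = 0.280). Without WT 2 it passed, at 2.85 (adjusted p = 0.000115). Gm34093 was the least even of the 10. It had 1 read in WT, and its KO values of 7.06, 21.7 and 65.6 spread over a wide range (log2 fold change 4.49 ± 0.72 SE, adjusted p = 0.00559). In 8 members, Gm15409 and Gm6961 among them, no WT library held a read and all KO libraries did, and the lower bound of their fold ran from 16.2 to 65.6. The other 6 were A930003A15Rik, A630091E08Rik, Gm19590, Gm17033, Gm44427 and Gm15208. In 0 members did every KO library lack reads. A member without reads in 1 group must have reached the level through the other alone, as 62 members did through KO and 22 through WT. The share over all genes was not counted, so these counts are a description. The rises stood beside the higher immature thymocyte markers given above, whose part in them was not tested. A430034D21Rik and Gm37552 belong to a group of members beside Gpr25 that is described further on.

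**Figure D2:**
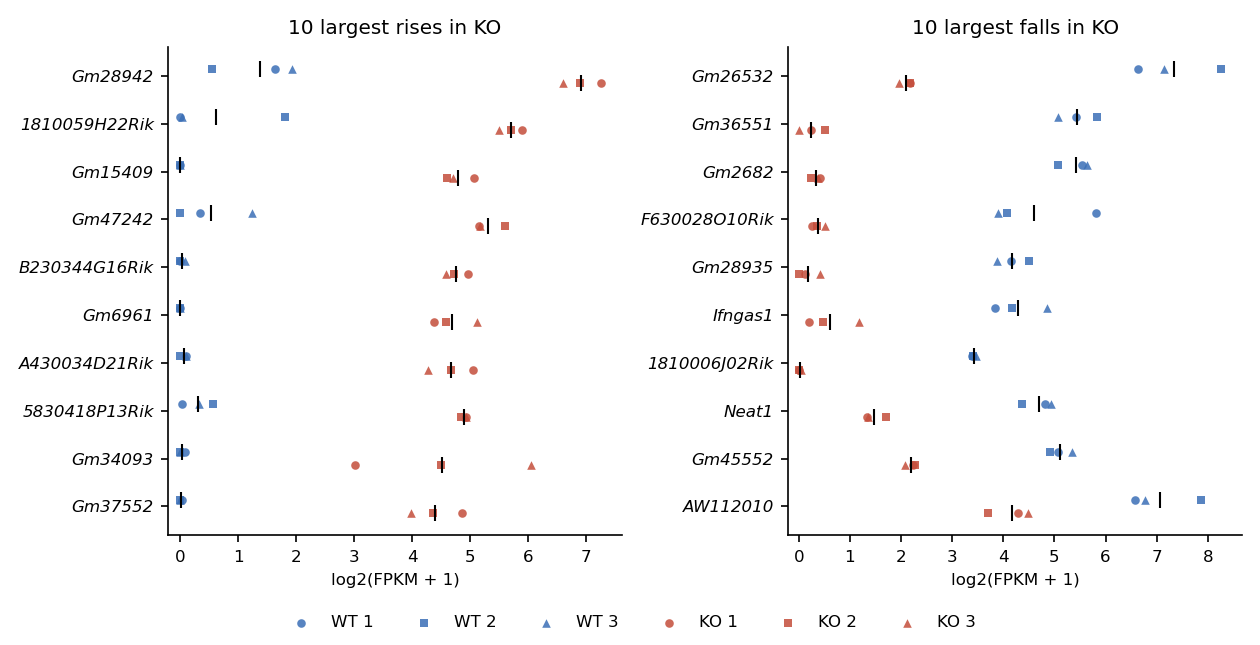
The 10 largest rises (left) and the 10 largest falls (right) among called members with groups that do not overlap, as log2(FPKM + 1) in each library (blue, WT; red, KO; circle, square and triangle for replicates 1, 2 and 3; black bar, group mean). In 7 of the rows on the left all WT points lie below 1, and Gm34093 shows the widest spread among KO libraries.

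The deepest fall was that of Gm26532, a lincRNA gene of 690 bases on chromosome 8 (chr8:84208920-84209609), at 97.7, 304 and 141 in WT and 3.50, 3.50 and 2.88 in KO. The groups were far apart, with a difference of -5.24 ± 0.43 (SE, adjusted p = 0.000550), while the closest protein-coding gene, Zswim4, 1.07 kb away, gave 0.54 ± 0.31 (SE, adjusted p = 0.252). Gm36551 lies opposite Pilrb1, an activating paired immunoglobulin-like receptor of myeloid cells, and both were lower. The antisense gene fell from 41.9, 55.9 and 32.5 in WT to 0.179, 0.423 and 0 in KO (log2 fold change -5.19 ± 0.29 SE, adjusted p = 0.000259), and Pilrb1 from 18.1, 26.9 and 7.22 in WT to 0.0823, 0.0325 and 0.190 in KO (log2 fold change -3.90 ± 0.46 SE, adjusted p = 0.00188). Gm2682, on chromosome 15, had 45.6, 32.7 and 48.6 in WT and 0.337, 0.184 and 0.300 in KO (log2 fold change -5.07 ± 0.25 SE, adjusted p = 0.000233). No protein-coding gene was closer to it than 104 kb, and that one, 4933412E24Rik, was not tested at its level near 0.

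Other falls included RNAs tied to immune function. Ifngas1 is transcribed beside Ifng, the interferon gamma gene, and is known as an RNA that promotes transcription of Ifng in T cells and natural killer cells. Its FPKM was 13.2, 16.9 and 28.0 in WT and 0.144, 0.397 and 1.27 in KO, with no overlap (log2 fold change -3.66 ± 0.39 SE, adjusted p = 0.00136). Ifng, 56.1 kb away and convergent with it, went from 13.2, 59.1 and 24.5 in WT to 0.539, 1.81 and 1.68 in KO (log2 fold change -3.62 ± 0.56 SE, adjusted p = 0.00497). AW112010, an RNA induced in activated T cells and macrophages, fell from 94.1, 233 and 108 in WT to 18.6, 12.04 and 21.5 in KO (log2 fold change -2.91 ± 0.42 SE, adjusted p = 0.00407). It was the 1 member among the 10 largest falls that reached the level in all 6 libraries. Gm28935, near the Ms4a genes of immune cell membrane proteins on chromosome 19, went from 16.8, 21.6 and 13.6 in WT to 0.0945, 0 and 0.328 in KO (log2 fold change -3.99 ± 0.27 SE, adjusted p = 0.000308), and 1810006J02Rik from 9.40, 9.67 and 10.04 in WT to 0, 0 and 0.0330 in KO (log2 fold change -3.40 ± 0.19 SE, adjusted p = 0.000259). The latter was the most even of the falls in WT, and it had 1 read in all KO libraries. These falls stood beside the lower effector and neutrophil markers given above, whose part in them was not tested.

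Neat1, the RNA scaffold of nuclear paraspeckles, had an FPKM of 27.0, 19.5 and 29.6 in WT and 1.53, 2.28 and 1.56 in KO, and no library of one group came near the other (log2 fold change -3.23 ± 0.27 SE, adjusted p = 0.000551). Its neighbour on the same strand, Frmd8, gave -0.35 ± 0.27 (SE, adjusted p = 0.391). Malat1, the RNA of nuclear speckles, lies on the same chromosome 19 stretch. It stood at 343, 32.8 and 387 in WT and 115, 105 and 110.2 in KO. WT 2 was the lowest library and WT 1 and WT 3 the highest, and the difference was -0.58 ± 0.93 (SE, adjusted p = 0.699). Without WT 2 it was -1.72 (adjusted p = 0.000315), while with WT 2 and in TPM it had the opposite sign, 0.26 (adjusted p = 0.885). Gm45552, the remaining gene of the 10 largest falls, went from 32.5, 29.1 and 39.7 in WT to 3.73, 3.84 and 3.19 in KO (log2 fold change -2.91 ± 0.23 SE, adjusted p = 0.000486), and the groups did not overlap.

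All 20 of these members kept their call and direction in every alternative fit in which they were tested. They were chosen for the largest differences in these same libraries, which the other fits share, so this is a description and not a further test. The plot of the called members by library shows how the groups divide over the whole set.

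**Figure D3:**
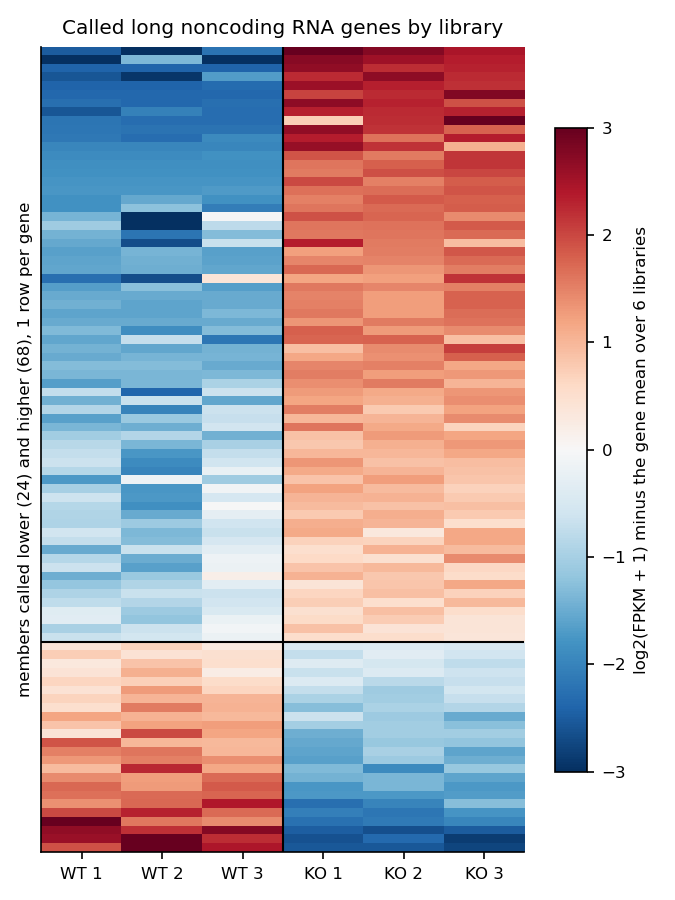
The 92 called members (1 row each, sorted by log2 fold change) in the 6 libraries, as log2(FPKM + 1) minus the mean of the gene over all libraries, cut at 3 and -3. The 68 rows above the line are high in the KO columns and the 24 below it are high in the WT columns, and WT 2 holds the darkest blue cells in several rows of the upper part.

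By mean FPKM, the 10 most abundant members were 2410006H16Rik, Mir142hg, Malat1, Gm44174, Gm42047, Epb41l4aos, Gm26532, AW112010, AU020206 and Snhg8. This order rests in part on WT 2, whose FPKM values have the largest sum: the highest mean over all 6 libraries was 213, that of 2410006H16Rik, and over the other 5 libraries it was 212, that of Malat1, with 2410006H16Rik at 132. 2410006H16Rik, a snoRNA-carrying RNA, was at 118, 618 and 149.7 in WT and 118, 126 and 149.8 in KO. WT 2 stood far above the rest and the difference was -0.76 ± 0.65 (SE, adjusted p = 0.441), and without WT 2 it was -0.029 (adjusted p = 0.898). Mir142hg, Epb41l4aos and Snhg8 had the same shape, with WT 2 highest at 747, 341 and 142 and no call over all 6 libraries. Without WT 2 Epb41l4aos, at -0.54 (adjusted p = 0.0169), and Snhg8, at -0.61 (adjusted p = 0.0420), were called lower. Gm44174, a short RNA gene 0.142 kb from Cd8a, had the opposite shape: its FPKM was 338, 0 and 299 in WT and 43.0, 48.6 and 27.8 in KO, with no read in WT 2. Its log2 difference was -0.23 ± 2.19 (SE, adjusted p = 0.953) over all libraries and -3.003 (adjusted p = 0.000431) without WT 2. Cd8a itself, the co-receptor chain of cytotoxic T cells, was at 189, 100.9 and 208 in WT and 321, 272 and 207 in KO (log2 fold change 0.72 ± 0.41 SE, adjusted p = 0.251). AU020206 was at 78.5, 53.7 and 115 in WT and 55.3, 53.9 and 59.4 in KO (log2 fold change -0.48 ± 0.33 SE, adjusted p = 0.349), and without WT 2 it was called lower, at -0.75 (adjusted p = 0.0181). Gm42047 was at 81.8, 43.5 and 84.8 in WT and 128, 128 and 148 in KO without overlap, but missed the threshold (log2 fold change 0.99 ± 0.34 SE, adjusted p = 0.0814), which it passed without WT 2, at 0.68 (adjusted p = 0.00747).

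Of the 23 listed snoRNA host genes, whose introns release the snoRNAs that guide modification of ribosomal RNA, 15 were tested and 12 were members. By limma, 1 was higher and 1 lower, beside 13.1% and 13.3% of all tested genes. The median log2 fold change was -0.53 (0.09 over all tested genes). In TPM the list median was 0.29 beside 0.86 for all genes, so its sign turns with the scaling while it stays below the median of all genes, and without WT 2 it was -0.13 beside 0.04. Without WT 2, 3 hosts were higher and 6 lower, beside 26.8% and 25.3% of all tested genes. Snhg12 was the host that fell, from 29.9, 63.2 and 43.7 in WT to 7.89, 10.2 and 10.8 in KO (log2 fold change -2.08 ± 0.33 SE, adjusted p = 0.00517). Snhg10 rose from 0.245, 2.73 and 0.976 in WT to 6.39, 8.76 and 6.34 in KO (log2 fold change 1.95 ± 0.43 SE, adjusted p = 0.0177). In both the groups did not overlap, but Snhg10 lost its call when any 1 KO library was left out (adjusted p 0.0615 to 0.0767).

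Gas5, which also acts as a decoy of the glucocorticoid receptor, stood at 55.7, 80.2 and 75.5 in WT and 32.2, 44.2 and 43.8 in KO and missed the threshold although no libraries overlapped (log2 fold change -0.80 ± 0.28 SE, adjusted p = 0.0801), and in TPM its difference was 0.028. Without WT 2 it was called lower, at -0.70 (adjusted p = 0.0337). Snhg1 (33.8, 77.2 and 45.8 in WT and 17.03, 22.6 and 29.2 in KO, log2 fold change -1.10 ± 0.38 SE, adjusted p = 0.0771) and Snhg15 (44.4, 113 and 48.2 in WT and 17.9, 25.3 and 30.6 in KO, log2 fold change -1.34 ± 0.43 SE, adjusted p = 0.0631) were placed likewise. Both were called lower without WT 2, at -0.79 (adjusted p = 0.0431) and -0.92 (adjusted p = 0.0190). WT 2 was the highest library for 10 of the 12 member hosts, and it also held the largest share of reads in ribosomal protein genes. Zfas1, Snhg5, Snhg6, Snhg17 and Snhg20 gave log2 fold changes between -0.58 and 0.09 and no call, and of these Snhg20 was called higher without WT 2, at 0.499 (adjusted p = 0.0315).

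**Figure D4:**
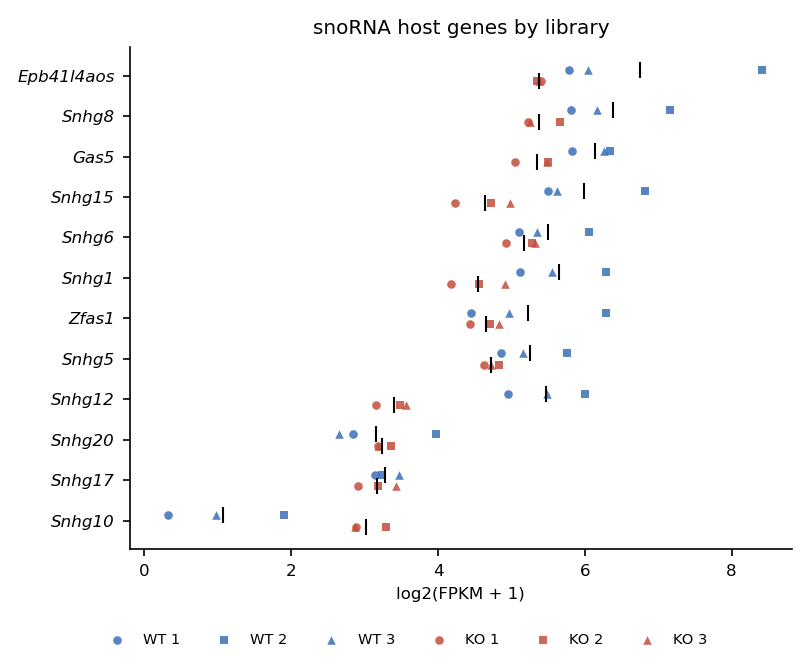
The 12 snoRNA host genes among the members, as log2(FPKM + 1) in each library (blue, WT; red, KO; circle, square and triangle for replicates 1, 2 and 3; black bar, group mean). WT 2 (blue square) lies to the right of all other points in 10 of the 12 rows, and Snhg12 and Snhg10 are the rows called lower and higher.

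In the RefSeq miRNA table (GRCm38.p6), 8 members contained at least 1 annotated miRNA hairpin on their own strand. The mature sequences of the hosts F630028O10Rik, Mir142hg and Mir17hg are shown because these miRNAs are marks of blood lineages: miR-223 of the myeloid lineage, miR-142 of blood cells in general, and the miR-17-92 cluster of dividing lymphoid progenitors and lymphomas. Each is printed 5′ to 3′ with the seed, bases 2 to 8, in capitals. The other annotated mature arms of Mir223 and of the Mir17hg hairpins are not shown.
miR-223-3p: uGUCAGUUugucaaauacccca
miR-142a-5p: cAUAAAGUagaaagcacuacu
miR-142a-3p: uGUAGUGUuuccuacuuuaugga
miR-17-5p: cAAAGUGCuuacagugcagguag
miR-20a-5p: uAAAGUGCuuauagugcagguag
miR-18a-5p: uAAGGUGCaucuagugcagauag
miR-19a-3p: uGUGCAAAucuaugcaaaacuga
miR-19b-3p: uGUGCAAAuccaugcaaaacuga
miR-92a-3p: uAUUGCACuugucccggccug

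The 6 miRNAs of Mir17hg shown held 4 seeds: miR-17-5p shared one with miR-20a-5p and miR-19a-3p shared another with miR-19b-3p. The seeds of miR-223-3p and of both arms of miR-142a were shared with none of the others shown. The libraries measured the host transcripts and not the mature miRNAs.

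F630028O10Rik, on the X chromosome (chrX:96239926-96243636, plus strand), contains Mir223 near its 3′ end and was at 54.9, 15.8 and 13.9 in WT and 0.196, 0.289 and 0.434 in KO. No KO library reached 1 and WT 1 was the highest, and the difference was -4.21 ± 0.52 (SE, adjusted p = 0.00230). The neutrophil markers beside it were lower in 15 of 15. Mir142hg was at 100.2, 747 and 119.7 in WT and 60.7, 72.7 and 54.3 in KO. The groups did not overlap, but WT 2 was several times above the other libraries and the difference missed the threshold (log2 fold change -1.73 ± 0.77 SE, adjusted p = 0.156), and without WT 2 it was -0.81 (adjusted p = 0.0104). Mir17hg gave 7.24, 3.51 and 10.3 in WT and 5.59, 10.5 and 8.20 in KO, with overlapping groups (log2 fold change 0.25 ± 0.41 SE, adjusted p = 0.707). Among the listed miRNA host genes, 10 were tested and 2, Mir155hg and Mir22hg, were lower and 0 higher by limma (4 and 0 without WT 2). Neither of these 2 was a member. The shares lower and higher over all tested genes were 13.3% and 13.1%, and 25.3% and 26.8% without WT 2. The list median was -0.49 and turned to 0.05 in TPM.

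The 300 bases around the RefSeq start of F630028O10Rik (GRCm38.p6, chrX:96239676-96239975, plus strand, 250 bases before the start and 50 after it) are shown because the transcript that carries Mir223 begins there. The capitals mark its 1 match, on the reverse strand, to the GATA motif AGATAA, and it held no match to GAGGAAGT (PU.1), TTGCNNAA (C/EBP), TGTGGT (RUNX) or CAGCTG (E proteins) on either strand.
F630028O10Rik: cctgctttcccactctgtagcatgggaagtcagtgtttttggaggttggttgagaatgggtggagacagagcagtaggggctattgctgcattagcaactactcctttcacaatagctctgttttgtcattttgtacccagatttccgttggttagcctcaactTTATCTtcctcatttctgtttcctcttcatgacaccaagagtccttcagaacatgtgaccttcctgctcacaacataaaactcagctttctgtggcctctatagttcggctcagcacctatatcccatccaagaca

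Such a window was found for 103 of the 235 members, 26 of them called higher and 11 called lower. GAGGAAGT occurred in 10.7% of the members' windows and in 3.28% of the 27025 windows of all genes. TGTGGT occurred in 8 of the 26 windows of members called higher, in 1 of 11 of those called lower and in 16.9% of all. In these same windows called higher and lower, GAGGAAGT occurred in 2 and 2 and AGATAA in 3 and 2. TTGCNNAA and CAGCTG each occurred in 3 and 0. Both strands were searched. CAGCTG was found in 13.6% and 16.1%, TTGCNNAA in 7.77% and 10.8% and AGATAA in 6.80% and 11.4% of the members' and of all windows. A match is a stretch of letters, and binding was not measured.

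The remaining lists were small. Of 8 tested RNAs that act in chromatin, nuclear bodies or imprinting, 2 were higher and 2 lower, with a median of -0.27 that turned to 0.55 in TPM. Peg13 (not a member) and Neat1 were those lower, and Jpx (not a member) and Airn those higher. Airn, the paternally expressed RNA that silences Igf2r on the same chromosome, was at 1.33, 0.568 and 1.72 in WT and 5.25, 5.07 and 7.62 in KO without overlap (log2 fold change 1.68 ± 0.30 SE, adjusted p = 0.00851). Igf2r was at 20.9, 2.03 and 23.5 in WT and 21.4, 20.7 and 25.0 in KO, with WT 2 far below all others, and was not called (log2 fold change 0.99 ± 0.80 SE, adjusted p = 0.416). 2900097C17Rik, the mouse counterpart of the Pumilio-binding RNA NORAD, was at 42.8, 8.67 and 38.8 in WT and 38.9, 34.5 and 38.7 in KO (log2 fold change 0.58 ± 0.59 SE, adjusted p = 0.525), and Tug1 at 20.7, 8.28 and 17.8 in WT and 16.3, 14.7 and 13.7 in KO (log2 fold change 0.03 ± 0.36 SE, adjusted p = 0.967). In both, WT 2 was the lowest library and the others lay close together. Of 6 tested p53-linked RNAs 0 were higher and 2 lower (median -0.95), and of 9 tested immune RNAs 0 were higher and 4 lower (median -1.57), by limma. Those lower were Neat1 and Mir22hg on the first list and AW112010, Ifngas1, Mir155hg and Neat1 on the second. Without WT 2 the counts higher and lower were 2 and 4 for the chromatin list, 0 and 4 for the p53-linked list and 1 and 6 for the immune list. The shares over all tested genes were 13.1% and 13.3% with WT 2, and 26.8% and 25.3% without it. Mirt1, a member on the list of miRNA hosts, gave 13.7, 10.3 and 12.5 in WT and 12.8, 12.7 and 16.3 in KO (log2 fold change 0.18 ± 0.24 SE, adjusted p = 0.614).

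Each member was then set beside the nearest protein-coding gene on its chromosome, by the gap between gene start and gene end. Of the 235 neighbours, 99 overlapped the member on the opposite strand and 15 on the same strand. A further 33 were divergent, 24 convergent and 64 on the same strand without overlap. In the 196 pairs in which the neighbour was tested, the log2 fold changes of the pair had a Pearson r of 0.55 and a Spearman rho of 0.54. The pairs shared libraries, depth and, where they overlapped, possibly reads, so r is a description. For the 4961 pairs of protein-coding genes at the same level with their own nearest neighbours r was 0.31. The sets differ in spread: 21.3% of the members but 4.18% of these protein-coding genes rose by more than 2 on the log2 scale. Of the members, 62 reached the level in KO alone and 22 in WT alone. The part of this difference in r, in the matching signs and in the joint calls was not tested. Signs matched in 71.4% of the members' pairs and 58.4% of the protein-coding pairs. Both genes were called in 38 pairs of members, 34 of them in the same direction, and in 379 protein-coding pairs, 308 of them in the same direction. Overlapping pairs on opposite strands gave an r of 0.77 (92 pairs) and pairs apart by at most 100 kb one of 0.48 (84 pairs). Protein-coding pairs apart by at most 100 kb gave 0.33 (3663 pairs). At that distance, 16 of 20 members' pairs with both genes called went in the same direction, and 242 of 297 protein-coding pairs did. Without WT 2 the r was 0.55 over all members' pairs and 0.29 over all protein-coding pairs.

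**Figure D5:**
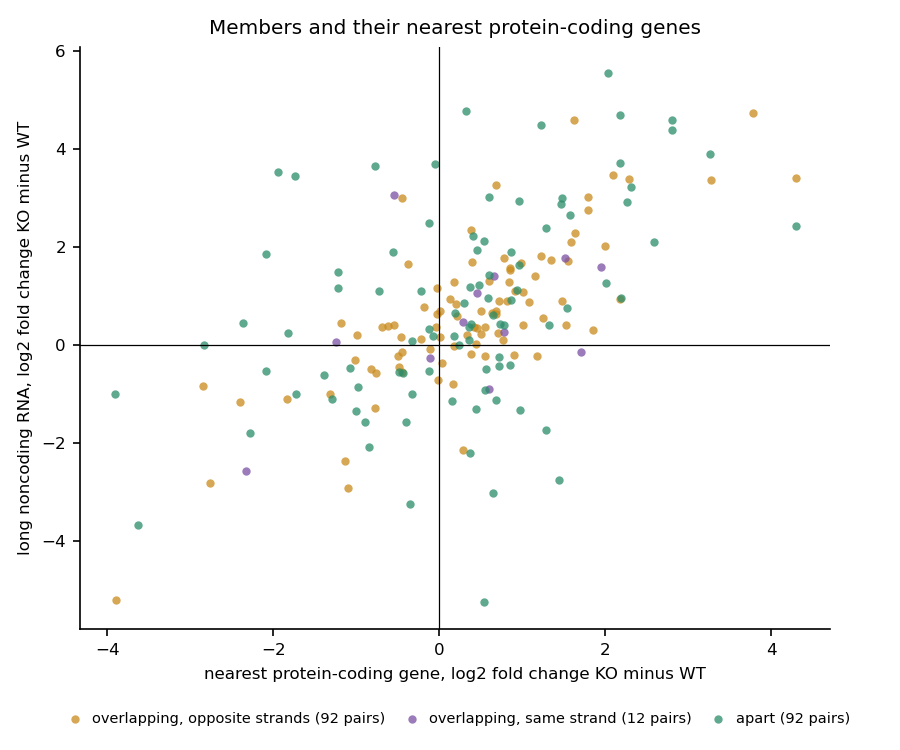
Log2 fold change of KO over WT of each member (vertical axis) against that of its nearest protein-coding gene (horizontal axis) for the 196 pairs with a tested neighbour, coloured by position. The 92 orange pairs overlap on opposite strands and lie nearest to a line (r = 0.77), and the upper left and lower right corners hold the pairs with opposite signs.

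The following pairs were chosen after their values were seen. 2310075C17Rik lies opposite Arpp21, a regulator of RNA binding that is abundant in thymocytes. The member was at 0.199, 0.783 and 0 in WT and 11.9, 12.7 and 13.7 in KO (log2 fold change 3.41 ± 0.28 SE, adjusted p = 0.000563) and Arpp21 at 0.00743, 0.176 and 0 in WT and 19.8, 18.6 and 21.0 in KO (log2 fold change 4.297 ± 0.22 SE, adjusted p = 0.000233). 2610307P16Rik, a processed transcript on chromosome 13 that lies 63.3 kb from Sox4, a transcription factor of lymphoid progenitors, rose from 0.0787, 0.852 and 0 in WT to 5.61, 5.15 and 6.72 in KO (log2 fold change 2.43 ± 0.30 SE, adjusted p = 0.00212). Sox4 rose from 0.378, 3.26 and 0.0538 in WT to 38.4, 37.3 and 29.9 in KO (log2 fold change 4.29 ± 0.53 SE, adjusted p = 0.00228).

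Gm15208 had no read in WT and 6.10, 7.34 and 7.69 in KO (adjusted p = 0.000298), at least 16.2-fold above the floor. It lies 126 kb from Bcl11b, a transcription factor of T-lineage commitment, which was at 15.4, 7.89 and 17.4 in WT and 41.6, 34.4 and 37.4 in KO (log2 fold change 1.48 ± 0.33 SE, adjusted p = 0.0191) and lost its call without any 1 KO library (adjusted p up to 0.0821). A630014C17Rik, opposite Tcf7, the gene of the T cell factor TCF-1, was at 1.58, 1.28 and 2.23 in WT and 9.39, 8.96 and 5.95 in KO (log2 fold change 1.75 ± 0.28 SE, adjusted p = 0.00542). Tcf7 was at 234, 100.5 and 298 in WT and 558, 429 and 491 in KO without overlap and missed the threshold (log2 fold change 1.35 ± 0.50 SE, adjusted p = 0.0962). On the lower side, Kdm6bos, opposite the histone H3K27 demethylase gene Kdm6b, fell from 6.56, 21.8 and 12.1 in WT to 1.09, 1.81 and 1.77 in KO (log2 fold change -2.37 ± 0.43 SE, adjusted p = 0.00896), and Kdm6b from 39.3, 20.4 and 41.2 in WT to 15.2, 13.1 and 13.9 in KO (log2 fold change -1.14 ± 0.32 SE, adjusted p = 0.0429). The call of Kdm6b held without WT 2 and ended without any other library (adjusted p up to 0.157).

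Opposite calls were made in 4 pairs, and without WT 2 in 19 of 95 pairs with both genes called. A930003A15Rik had no read in WT and an FPKM of 12.4, 8.74 and 10.9 in KO (adjusted p = 0.000281), at least 56.2-fold above the floor. Its neighbour 62.2 kb away, Klhl6, a lymphoid adaptor of a ubiquitin ligase, fell from 159.7, 138 and 235 in WT to 58.1, 37.5 and 39.7 in KO (log2 fold change -1.94 ± 0.33 SE, adjusted p = 0.00719). Gm14029 and AI847159 lie next to each other on chromosome 2 and were both higher (1.16 with adjusted p = 0.0431, and 1.496 with adjusted p = 0.00436), and the phosphate transporter gene Slc20a1 on their other side was lower (log2 fold change -1.22 ± 0.27 SE, adjusted p = 0.0181). Gm14029 lost its call in TPM, at 2.02 (adjusted p = 0.0742). Gm11707 was lower, from 7.54, 8.16 and 5.003 in WT to 0, 0.518 and 0 in KO (log2 fold change -2.76 ± 0.29 SE, adjusted p = 0.00122), beside Kpna2, which encodes an importin and was higher (log2 fold change 1.44 ± 0.41 SE, adjusted p = 0.0449). Of the 4 pairs, the one of A930003A15Rik and Klhl6 kept both calls whichever library was left out. Gm14029 and Slc20a1 lost theirs without KO 1, KO 2, KO 3 or WT 1 (adjusted p up to 0.167 and 0.0827), and Kpna2 without any library but WT 2 (adjusted p up to 0.167).

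Among the members with a RefSeq start window, 7 held the start of a divergent protein-coding gene within the 250 bases before their own start. They were Snhg1 with Slc3a2, 2810001G20Rik with Cox10, 2010320M18Rik with Pik3r2, BC051226 with Daxx, 2010001A14Rik with Sap30l, Fam120aos with Fam120a and Gm7160 with Zcchc2. Both genes were called in the last pair alone. Gm7160 was at 3.61, 1.80 and 3.37 in WT and 7.35, 10.2 and 7.54 in KO (log2 fold change 1.28 ± 0.29 SE, adjusted p = 0.0214), and Zcchc2 at 17.7, 3.35 and 15.95 in WT and 51.0, 39.1 and 42.4 in KO (log2 fold change 2.01 ± 0.58 SE, adjusted p = 0.0447). The starts are 124 bases apart. Without any 1 KO library neither gene was called, and without WT 3 Zcchc2 was not (adjusted p up to 0.104 for Gm7160 and 0.148 for Zcchc2). Of the pair at Snhg1, Slc3a2, the heavy chain of an amino acid transporter, was lower (log2 fold change -1.28 ± 0.26 SE, adjusted p = 0.0136) and Snhg1 was not called. The call of Slc3a2 ended without any 1 KO library (adjusted p up to 0.0767). The window of Gm7160 (GRCm38.p6, chr1:105990233-105990532, minus strand) is shown because the 2 transcripts that rose leave it in opposite directions. The capitals run from the start of Zcchc2 to that of Gm7160.
Gm7160: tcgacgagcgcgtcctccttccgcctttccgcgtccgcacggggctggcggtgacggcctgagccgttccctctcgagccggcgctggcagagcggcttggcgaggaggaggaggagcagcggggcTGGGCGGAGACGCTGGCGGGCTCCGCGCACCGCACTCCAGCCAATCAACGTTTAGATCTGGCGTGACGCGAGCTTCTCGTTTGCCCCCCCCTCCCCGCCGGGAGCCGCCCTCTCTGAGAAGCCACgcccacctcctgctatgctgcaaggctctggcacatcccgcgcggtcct

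Members also lay near each other. With gaps of at most 100 kb, 43 members formed 20 groups of 2 or 3, and in 7 groups every member was higher. In 0 groups was every member lower, and 0 groups held members called in both directions by limma. Of all members 28.9% were called higher and 10.2% lower, and of all tested genes 13.1% and 13.3%. Among the 68 members called higher, 59 had reached the level in KO libraries alone, so the counts of groups are a description. These groups were described after their values were seen, and members of a group can share reads where they overlap. The 3 members at chr1:136247662-136274406 are A430034D21Rik, Gm37552 and Gm26781, next to Gpr25, which encodes a G protein-coupled receptor. A430034D21Rik was at 0.0719, 0 and 0.0716 in WT and 32.1, 24.5 and 18.4 in KO (log2 fold change 4.60 ± 0.27 SE, adjusted p = 0.000271). Gm37552 had 1 read in WT and an FPKM of 28.2, 19.7 and 14.7 in KO (log2 fold change 4.39 ± 0.29 SE, adjusted p = 0.000300). For Gm26781 the values were 0.526, 0.0576 and 0.568 in WT and 12.4, 8.34 and 9.21 in KO (log2 fold change 2.99 ± 0.27 SE, adjusted p = 0.000794). Gpr25 was at 0, 0.0790 and 0.0599 in WT and 5.73, 6.49 and 6.75 in KO (log2 fold change 2.81 ± 0.19 SE, adjusted p = 0.000315), so that all 4 were near 0 in WT. The order of the KO libraries was the same in A430034D21Rik and Gm37552 (KO 1 highest, KO 3 lowest), but not in Gpr25.

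The other groups called higher throughout were 1810059H22Rik with Gm15409, Gm40841 with 2610307P16Rik near Sox4, Gm30159 with Gm41335, Gm49169 with Gm6961 beside Ano6, AI847159 with Gm14029, and AI504432 with A930002I21Rik. Gm30159 and Gm41335 lie on the minus strand between positions 63067008 and 63718289 of chromosome 15. Gm30159 was at 0.0137, 0.126 and 0 in WT and 7.40, 7.50 and 8.84 in KO, and Gm41335 at 0, 0.188 and 0 in WT and 6.32, 8.04 and 10.3 in KO, so neither reached 1 in a WT library. AI504432 and A930002I21Rik lie near the potassium channel genes Kcna3 and Kcna2 and differed by 2.10 ± 0.40 (SE, adjusted p = 0.0109) and 2.88 ± 0.24 (SE, adjusted p = 0.000561). Without KO 1 the call of AI504432 ended (adjusted p = 0.0543).

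At the limit of the rule, the members with the lowest third-highest FPKM were Gm11707 (5.003), Gm20735 (5.02) and 5430416N02Rik (5.05). The genes just outside it were 2610035D17Rik (4.99), Gm13919 and BE692007 (both 4.97).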

How the data were processed

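Bone marrow RNA libraries (3 WT, 3 KO) were made with a NEBNext kit and read as paired ends. The submitters' processing notes name HISAT2 2.0.5, featureCounts 1.5.0-p3 and GRCm38, and the authors deposited FPKM values per gene. With 1 size per library, FPKM times gene length gave whole reads for 100% of values (within 0.01 read), 13015823 to 18235095 a library. The library sizes in the FPKM were 0.645 times these reads for WT 2 and 1.01 to 1.21 times for the others. Genes with FPKM of at least 1 in at least 3 libraries (13393) were compared on log2(FPKM + 1) with limma 3.58.1 (R 4.3.3). The settings were eBayes with trend, two-sided tests, Benjamini-Hochberg over all genes and a threshold of 0.05. The fit was tried on simulated data with the same spread in every library, so that trial does not cover a library like WT 2. Other scalings, filters, weights and left-out libraries were tried. Fold changes on this scale understate those of low genes. Floors (3 reads a library) cover counting error only. Coordinates of 229 members equal those of GENCODE M21 (GRCm38). The members and lists were chosen with earlier results of these data known. Named members were the 10 largest rises and falls with groups that do not overlap, the 10 highest means, those on a list, those at the limit, and their neighbours.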

Additional observations from a re-analysis of the deposited data

How the results depend on the processing

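The counts rested most on WT 2. Over all genes 3539 were called, and leaving out 1 library at a time gave 1934 to 6967 calls, the highest without WT 2. For members the range was 50 to 98 higher and 19 to 63 lower, and 21 to 76 pairs with both genes called in the same direction, which are the pairs counted in this paragraph (98, 63 and 76 without WT 2). Weighting the libraries, which gave WT 2 little weight, called 8461 genes, 108 members higher, 61 lower and 85 pairs. A mean FPKM of at least 5 for testing, with 8296 genes tested in place of 13393, left 1837 calls, 43 members higher and 16 pairs. At a threshold of 0.01 there were 1812 calls, 48 members higher, 19 lower and 20 pairs. A member level of FPKM 2 gave 550 members with 151 higher, 49 lower and 73 pairs, and one of 10 gave 100.0 members with 30 higher, 13 lower and 13 pairs. Members overlapping no other gene gave 24, 10 and 11, and of the pairs apart within 100 kb 16 were called in the same direction. On recovered reads, voom called 3359 genes, 62 members higher and 25 lower. Adding further noncoding biotypes, a choice made after the data were seen, gave 258 members, 71 higher and 26 lower.

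The list medians moved as follows. Library weights gave 0.0084 for snoRNA hosts and -0.55 for p53-linked RNAs. TPM gave 0.29 for snoRNA hosts, 0.048 for miRNA hosts, 0.55 for chromatin RNAs, -0.13 for p53-linked and -0.90 for immune RNAs. A mean FPKM of at least 5 gave 0.18 for miRNA hosts and -2.91 for immune RNAs, no filter gave -0.0050 and -0.58, and quantile normalization gave -0.91 for immune RNAs. Without 1 library the immune median ran from -1.72 to -1.17 and the chromatin median from -0.74 to 0.11.

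Replicate numbers gave correlations of 0.10, 0.10 and -0.15 between same-numbered libraries, and of -0.20 to 0.23 between libraries with different numbers. With 3 libraries a group, and WT 2 apart from the other WT libraries, these values cannot show whether the samples were paired. A replicate block changed the counts to 2676 genes, 62 members higher, 20 lower and 28 pairs called in the same direction.

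Of the 43 members named by the rule, 23 were called, and 22 of these kept call and direction throughout. The largest rises and falls among them were chosen by these same values, so their stability is a description. Snhg10 lost its call without any 1 KO library (1.81 to 2.02, adjusted p 0.0615 to 0.0767). The other 20 were not called. Of these, 11 gained a call in at least 1 alternative (Mir142hg, Malat1, Gm44174, Gm42047, Epb41l4aos, AU020206, Snhg8, Gas5, Snhg15, Snhg1 and Snhg20), each of them without WT 2, and 13 changed sign somewhere. Values of the opposite sign under TPM were 0.073 (2410006H16Rik), 0.26 (Malat1), 0.64 (Gm44174), 0.35 (AU020206), 0.028 (Gas5), 0.50 (Snhg6), 0.25 (Zfas1), 0.29 (Snhg5) and 0.68 (Snhg17). Library weights turned 2410006H16Rik to 0.075, Snhg6 to 0.064, 2900097C17Rik to -0.18, Zfas1 to 0.15, Tug1 to -0.42 and Snhg17 to 0.0084. Quantile normalization turned 2410006H16Rik to 0.16 and Snhg6 to 0.019. Pseudocounts of 0.1 and 0.5 turned Gm44174 to 0.85 and 0.085. For Tug1, median-of-ratios scaling gave -0.015 and voom -0.0028. Without 1 library the ranges were -1.72 to 0.040 for Malat1, -3.003 to 1.20 for Gm44174, -0.13 to 0.96 for 2900097C17Rik, -0.35 to 0.27 for Tug1, -0.16 to 0.50 for Snhg20, -0.23 to 0.022 for Snhg17 and -0.12 to 0.54 for Mir17hg. The cause of these shifts was not tested.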

Other observations

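The members in this section were chosen after their values were seen. Gm20149, antisense to Ahi1, the gene of a ciliary protein, was at 0.155, 0.153 and 0.194 in WT and 11.3, 11.5 and 13.3 in KO (log2 fold change 3.48 ± 0.21 SE, adjusted p = 0.000271), and Ahi1 was higher too (log2 fold change 2.10 ± 0.24 SE, adjusted p = 0.00163). Gm11695, opposite the monocarboxylate transporter gene Slc16a5, went from 3.34, 0 and 4.28 in WT to 26.8, 27.2 and 31.9 in KO (log2 fold change 3.38 ± 0.63 SE, adjusted p = 0.00993), and Slc16a5 was higher as well (log2 fold change 3.27 ± 0.28 SE, adjusted p = 0.000652). Dlx1as, which is named for the homeobox gene Dlx1, was at 0.994, 0.157 and 1.15 in WT and 15.0, 15.2 and 16.3 in KO (log2 fold change 3.27 ± 0.30 SE, adjusted p = 0.000842), and none of its WT libraries reached its lowest KO value. Its nearest gene by the gap, Metap1d, was not called (log2 fold change 0.69 ± 0.29 SE, adjusted p = 0.139).

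Among the 19 members with an annotated snoRNA on their own strand inside them, 2 were higher and 1 was lower, with a median log2 fold change of -0.53. Over all tested genes 13.1% were higher and 13.3% lower, with a median of 0.09. The miRNA hairpins inside members other than those described above were Mir101a in E130102H24Rik, Mir6516 in Snhg20, Mir1839 in 2900076A07Rik, Mir3069 in Snhg10 and Mir6368 in 2610307P16Rik. E130102H24Rik was at 6.85, 5.19 and 8.50 in WT and 3.57, 2.14 and 3.45 in KO and just missed the threshold (log2 fold change -0.95 ± 0.29 SE, adjusted p = 0.0524). It was called without WT 2, at -1.11 (adjusted p = 0.00856).

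Gm26917, which lies next to a gene annotated as ribosomal RNA on chromosome 17, was at 14.4, 163 and 38.2 in WT and 7.95, 8.64 and 6.03 in KO. WT 2 held the highest value by far, and the difference missed the threshold (log2 fold change -2.45 ± 0.81 SE, adjusted p = 0.0696).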
